A study of Homo sapiens with 74 samples.

Results

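Chromatin accessibility in BRD9 knockout cells was compared directly with that in BRD7 knockout cells, over the autosomal regions of the deposited knockout table. The comparison rested on 4 of the 74 samples listed for the series and on 138795 of the 145536 regions in the table. The BRD9 knockout was clone 10-934, the BRD7 knockout was clone 10-923, and each was represented by replicates 1 and 2. Unedited wild-type cells, replicates 1 and 2, were used to say where an unedited line lay. They were also the reference for fold changes in knockouts of other subunits. Beside BRD9 and BRD7, 21 other knockout clones of 19 genes were read. A further reading of ARID2 used knockout and wild-type cells that both carried a control knockdown. All are HAP1 cells, a human leukaemia line with a nearly haploid genome, and 50000 cells went into each transposase reaction. The BRD9 and the BRD7 knockout are each 1 clone, so loss of the gene cannot be told apart from other changes carried by that clone. The assay, ATAC-seq, lets a transposase insert adapters into DNA, so that reads pile up where nucleosomes leave it exposed.

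BRD9 and BRD7 are related proteins that each carry a bromodomain, a fold that binds acetylated lysines on histone tails. Both are subunits of the BAF (SWI/SNF) family of complexes, which slide and evict nucleosomes with energy from ATP. BRD9 belongs to non-canonical BAF, a small assembly without the ARID-family subunits, whereas BRD7 belongs to PBAF, where it sits with ARID2, PBRM1 and PHF10. Both assemblies use the same ATPases and share core subunits, among them SMARCC1 and SMARCD1. The direct comparison therefore asks which regions depend differently on the bromodomain subunit of one complex and on that of the other. Because BRD9 and BRD7 libraries are set against each other, neither side of the difference passes through wild type.

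Total counts were 9773261 and 9462606 in BRD9 knockout libraries, 8483908 and 10949315 in BRD7 knockout libraries, and 10286301 and 7933613 in wild-type libraries. Across autosomal regions, log2 CPM, reads scaled to the size of each library, correlated at r = 0.92 between the BRD9 libraries and at 0.93 between the BRD7 libraries. The 4 pairings of a BRD9 with a BRD7 library gave r of 0.90 to 0.91. The share of autosomal counts in the 10% of regions with the highest mean was 45.2% and 42.8% in BRD9, 43.4% and 43.1% in BRD7, and 45.4% and 42.1% in wild-type libraries, so these ranges overlapped. HAP1 cells carry an extra copy of a chromosome 15 segment, taken here as 61 to 90 Mb. Its median CPM over that of the rest of the chromosome was 1.44 and 1.59 in BRD9, 1.47 and 1.37 in BRD7, and 1.33 and 1.45 in wild-type libraries. A small coding change leaves the DNA of a gene in place, so accessibility does not check the knockouts themselves. Whether replicates were separate cultures is not stated in the labels, and each p-value therefore reflects the spread between libraries, which may be technical.

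Accessibility differed between BRD9 and BRD7 knockout cells at 2851 of 138791 autosomal regions tested, or 2.05%. At 1661 of them (1.2% of regions tested) BRD9 knockout cells were lower than BRD7 knockout cells, and at 1190 (0.857%) they were higher. A region counts as called at an adjusted p of 0.05 in edgeR's quasi-likelihood test, with Benjamini-Hochberg adjustment over all regions tested. The median log2 fold change, BRD9 minus BRD7, was -1.17 over the lower regions and 1.25 over the higher ones, against 0.01 over all regions tested. The difference was at least 2-fold at 1149 lower and 917 higher regions (0.828% and 0.661% of regions tested), and at least 4-fold at 90 lower and 98 higher regions. At the lower regions the median accessibility was 4.66 CPM in BRD9 knockout cells, 10.8 CPM in BRD7 knockout cells and 6.92 CPM in wild type. At the higher regions it was 8.81 CPM in BRD9 knockout cells, 3.48 CPM in BRD7 knockout cells and 6.14 CPM in wild type. With 2 libraries a side, every library weighed on the count. It was 1223 without BRD9 replicate 1, 1173 without BRD9 replicate 2, 1524 without BRD7 replicate 1 and 882 without BRD7 replicate 2. The excess of lower over higher calls also rested on a library, since lower regions made up 58.3% of all calls but 47.1% without BRD9 replicate 2. The regions called in the same direction whichever of the 4 libraries was left out numbered 220 lower and 147 higher, and 213 and 146 of these differed at least 2-fold.

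**Figure D1:**
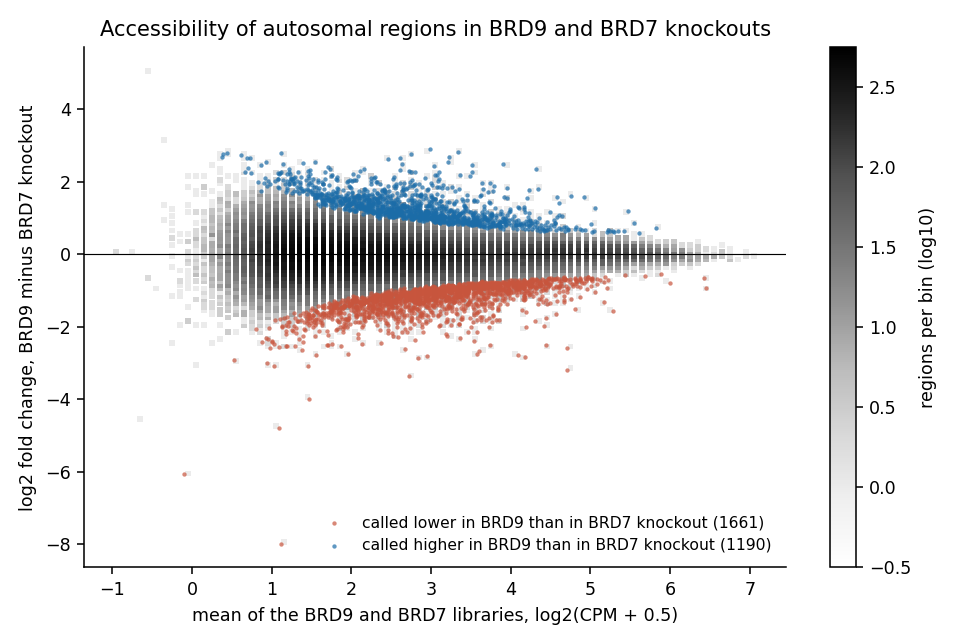
Log2 fold change of each autosomal region, BRD9 minus BRD7 knockout, against its mean accessibility in the 4 libraries on a log2(CPM + 0.5) scale. Grey squares are bins shaded by the number of regions, and coloured dots are the 1661 regions called lower and the 1190 called higher in BRD9 than in BRD7 knockout cells.

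The regions with the largest differences, among called regions of above-median accessibility, are given by position in hg19. This is the build named for the files, which do not pair regions with genes. Less accessible regions could have larger folds, among them chr16:78804316-78804951, at a log2 fold change of -7.99. Among regions lower in BRD9 knockout cells, several were open in BRD7 knockout cells and near wild-type level in BRD9 knockout cells. The region chr3:188665047-188666005 had 6.62 and 3.45 CPM in BRD9 knockout libraries, 44.0 and 48.3 CPM in BRD7 knockout libraries, and 4.76 and 5.98 CPM in wild type. Its log2 fold change between the knockouts was -3.20 ± 0.25 (SE, adjusted p = 1.67e-21), and BRD7 knockout cells had the highest mean of the 24 groups of the same set (its clones and wild type), followed by the 2 ARID1A knockout clones at 37.7 and 35.9 CPM. The region chr6:63443519-63444775 behaved alike, with 1.45 and 2.13 CPM in BRD9, 13.2 and 12.1 CPM in BRD7, and 2.33 and 1.2 CPM in wild type (log2 fold change -2.81 ± 0.32, adjusted p = 8.15e-12). There the ARID1B knockout was higher still, at 23.7 CPM, and so was the SMARCD1 knockout, at 15.5 CPM. ARID2, PBRM1 and PHF10 knockouts were not called there, at log2 fold changes from wild type of 0.26, 0.55 and 0.47. In chr5:58759517-58760377, BRD9 knockout libraries had 3.83 and 2.54 CPM, BRD7 knockout libraries 17.3 and 23 CPM, and wild type 3.59 and 4.42 CPM. BRD7 knockout cells again had the highest level of the 24 groups.

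At other lower regions the shift from wild type was on the BRD9 side or on both sides. The region chr10:56532149-56532988 had 3.1 and 2.84 CPM in BRD9, 18.5 and 21.3 CPM in BRD7, and 11.1 and 11.5 CPM in wild-type libraries. Both knockouts were called against wild type there, at -1.92 in BRD9 (adjusted p = 3.95e-07) and 0.82 in BRD7 (adjusted p = 0.0467). The region chr12:130645973-130647303 split the same way, with 3.93 and 4.77 CPM in BRD9, 30.4 and 31.5 CPM in BRD7, and 10.7 and 12.4 CPM in wild type. At that region the other clones spread from 3.14 CPM (SMARCA4) to 34.5 CPM (DPF1) around a median of 4.38 CPM, so BRD9 knockout cells lay close to that median and BRD7 knockout cells near the top. At chr2:198063408-198064074, BRD9 knockout libraries had 0.517 and 0.609 CPM, against 4.61 and 2.71 CPM in BRD7 and 4.17 and 4.3 CPM in wild-type libraries. BRD9 knockout cells had the lowest level of the 24 groups there, and the log2 fold change between the knockouts was -2.65 ± 0.48 (adjusted p = 4.63e-05). The remaining region among the 8 largest with reads in all libraries, chr2:17721436-17722201, had 4.34 and 3.96 CPM in BRD9, 31.2 and 26.6 CPM in BRD7, and 7.18 and 8.25 CPM in wild type.

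The 8 largest regions of above-median accessibility that were higher in BRD9 than in BRD7 knockout cells were all called lower in BRD7 knockout than in wild type. None of these 8 was called in BRD9 knockout against wild type. The region with the largest fold of the 8, chr3:169482563-169483211, had 15.5 and 10.6 CPM in BRD9, 2.3 and 1.26 CPM in BRD7, and 10.5 and 9.08 CPM in wild-type libraries. Its log2 fold change was 2.90 ± 0.29 (adjusted p = 1.72e-14), and all 21 other clones lay above BRD7, from 4.84 CPM (SMARCD3) to 17.3 CPM (DPF3). The region chr5:141404305-141405291 had 20.9 and 12.7 CPM in BRD9, 2.53 and 2.25 CPM in BRD7, and 20.8 and 16 CPM in wild-type libraries. Here too every other clone was higher than BRD7, with 13.9 CPM in the lowest of them. The wide region chr7:16460035-16461792 had the smallest p-value of the higher regions (log2 fold change 2.34 ± 0.21, adjusted p = 1.7e-17). Its levels were 35.4 and 29.8 CPM in BRD9, 5.64 and 7.13 CPM in BRD7, 36.4 and 22.8 CPM in wild type, and 24.4 to 46.6 CPM in the other clones. At these 3 regions BRD7 was the lowest of the 24 groups, and the clones outside that set were not ranked. Loss of BRD7 and other changes in that clone cannot be told apart here.

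At 4 of the other large regions at least 1 further clone lay close to or below the BRD7 level. At chr8:5532503-5533175, BRD9 knockout libraries had 13.4 and 6.09 CPM, BRD7 knockout libraries 0.922 and 2.07 CPM and wild type 8.83 and 6.1 CPM. ARID2 knockout cells, at 1.2 CPM, were the only group below BRD7. Its neighbour chr8:5534024-5534709 had 7.96 and 9.23 CPM in BRD9, 1.84 and 0.992 CPM in BRD7 and 4.66 and 4.42 CPM in wild type, and BRD9 knockout cells had the highest level of the 24 groups, with a SMARCA4 clone below BRD7 at 1.31 CPM. At chr2:166325780-166326437 the levels were 12.6 and 9.13 CPM in BRD9, 1.15 and 1.98 CPM in BRD7 and 10.5 and 6.57 CPM in wild type, and the SMARCC1 knockout was almost as low as BRD7, at 1.76 CPM. The region chr8:59058055-59058968 had 15.6 and 15.2 CPM in BRD9, 1.84 and 2.89 CPM in BRD7 and 8.83 and 8.96 CPM in wild type, with ACTB knockout cells next above BRD7 at 2.43 CPM. At chr15:22923420-22924047 the levels were 16.1 and 13.7 CPM in BRD9, 3.46 and 1.8 CPM in BRD7 and 11.8 and 9.92 CPM in wild type. BRD7 was the lowest of the 24 groups there, and the next were ARID2 at 6.02 CPM and a SMARCA4 clone at 7.45 CPM. The last of the 8, the less accessible chr18:42478368-42479035, had BRD7 lowest at a mean of 0.641 CPM and ARID1B next at 0.846 CPM. It was not called when BRD7 replicate 2 was left out (log2 fold change 1.94, adjusted p = 0.0843).

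**Figure D2:**
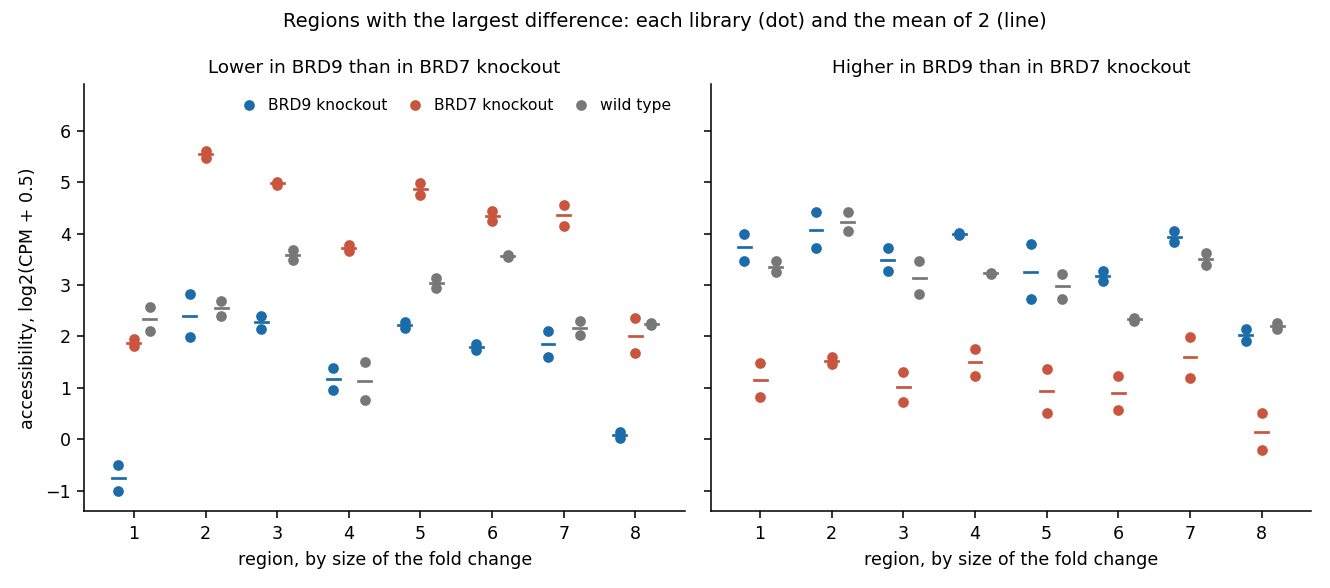
Accessibility of the 8 regions with the largest fold change in each direction, among called regions of above-median accessibility. Values are log2(CPM + 0.5), and regions are ordered by the size of the fold change. Dots are the 2 libraries of BRD9 knockout, BRD7 knockout and wild type, lines are their means, and at every region the BRD9 and BRD7 dots do not overlap.

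Differences at the most accessible regions were smaller. The most accessible region higher in BRD9 knockout cells by at least 1.5-fold, chr2:193058889-193061044, had 79.3 and 61 CPM in BRD9, 42.6 and 42.2 CPM in BRD7, and 61.7 and 53.4 CPM in wild type. Its log2 fold change was 0.73 ± 0.17 (adjusted p = 0.0038), and ARID2 knockout cells were lower than BRD7, at 38.1 CPM. The widest lower region, chr2:230931558-230933981, spans 2423 bp. It had 13.1 and 15.3 CPM in BRD9 knockout libraries, against 40.8 and 40.9 CPM in BRD7 and 38.8 and 32.4 CPM in wild-type libraries (log2 fold change -1.52 ± 0.18, adjusted p = 1.57e-10). There BRD9 knockout cells were the lowest of the 24 groups, SMARCA2 knockout cells followed at 14.9 CPM, and the median of the other clones was 44.9 CPM. The widest higher region, chr18:5628285-5631022, had 48.6 and 45.3 CPM in BRD9, 31.8 and 29.2 CPM in BRD7 and 48.6 and 32.9 CPM in wild type. Its adjusted p of 0.0302 did not hold when any 1 of the 4 libraries was left out (0.105 to 0.323). In all, 24 of the 34 regions picked by the naming rule were called whichever of the 4 libraries was left out.

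Wild type lay between the knockouts at most called regions. Its mean fell between the BRD9 and BRD7 means at 87.0% of the lower and 84.7% of the higher regions, and the median of the other 21 clones did so at 86.0% and 86.6%. Against wild type, 512 autosomal regions were called in BRD9 knockout cells (0.369% of those tested), of which 285 were lower (0.205%) and 227 higher (0.164%), and 960 in BRD7 knockout cells (0.692%), of which 428 were lower (0.308%) and 532 higher (0.383%). Both counts share the wild-type libraries and moved with single libraries. The BRD9 count was 158 without BRD9 replicate 1, 265 without BRD9 replicate 2, and 160 and 229 without the first and the second wild-type replicate. The BRD7 count was 527 without BRD7 replicate 1, 225 without BRD7 replicate 2, and 302 and 361 without the first and the second wild-type replicate. Of the 1661 regions lower in BRD9 than in BRD7, 145 were called against wild type in BRD9 alone, 247 in BRD7 alone, 5 in both and 1264 in neither. Of the 1190 higher regions, 96 were called against wild type in BRD9 alone, 212 in BRD7 alone, 5 in both and 877 in neither. At the regions called in neither, the median log2 fold changes from wild type were -0.56 in BRD9 and 0.59 in BRD7 for the lower set, and 0.51 in BRD9 and -0.69 in BRD7 for the higher set. These regions were chosen for a BRD9 minus BRD7 difference and for passing neither test against wild type, so the position of wild type between the knockouts is largely fixed by the choice and is given as a description.

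Some of the called regions were at an extreme among the 24 groups of the set. BRD9 knockout cells had the lowest mean of the 24 groups at 313 of the 1661 lower regions (18.8%), against 3.08% of all regions tested, and BRD7 knockout cells the highest at 374 (22.5%), against 3.01%. At the 1190 higher regions BRD9 knockout cells were the highest at 238 (20%), against 2.78% of all regions tested, and BRD7 knockout cells the lowest at 309 (26%), against 3.75%. At 1002 lower and 689 higher regions neither knockout was at the extreme. The BRD9 and BRD7 levels chose these regions, so the shares describe how far out the knockouts lay and are no test.

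The same regions were then read in knockouts of other subunits, whose libraries entered the choice only through the shared estimate of the spread. At the 1190 regions higher in BRD9, and thus lower in BRD7, the knockouts of other PBAF subunits had medians below 0. ARID2, the DNA-binding subunit that defines PBAF, had a median log2 fold change from wild type of -0.43, with 193 regions called lower (16.2%, against 1.09% over all regions tested) and 6 called higher (0.504%, against 0.678%). PBRM1, a PBAF subunit with several bromodomains, had a median of -0.27, with 51 regions called lower (4.29%, against 0.24%) and 5 called higher (0.42%, against 0.179%). PHF10, the PHD-finger subunit of PBAF, had a median of -0.11, and both directions were above their shares over all regions, with 36 called lower (3.03%, against 0.241%) and 17 called higher (1.43%, against 0.14%). Knockdown libraries were a separate set, in which ARID2 knockout and wild-type cells both carried a control knockdown. There ARID2 knockout cells had a median of -0.43 against that wild type, with 77 regions called lower (6.47%, against 0.367%) and 1 called higher (0.084%, against 0.0433%). SMARCD1, a core subunit that non-canonical BAF also uses, went the other way, with a median of 0.20 and 106 regions called higher (8.91%, against 0.751%). Its called-lower share there was 3.36%, against 0.79% over all regions tested.

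At the 1661 regions lower in BRD9 than in BRD7 the medians of SMARCD1, ARID2, PBRM1 and PHF10 in the knockout table had the opposite signs. SMARCD1 knockout cells had a median log2 fold change from wild type of -0.33, with 211 regions called lower (12.7%, against 0.79% of all regions tested) and 13 called higher (0.783%, against 0.751%). ARID2 knockout cells had a median of 0.21, with 121 regions called higher (7.28%, against 0.678%) and 55 called lower (3.31%, against 1.09%). PBRM1 had a median of 0.24, with 59 called higher (3.55%, against 0.179%) and 19 called lower (1.14%, against 0.24%). PHF10 had a median of 0.06, with 24 called higher (1.44%, against 0.14%) and 23 called lower (1.38%, against 0.241%), so its calls did not lean to either side. In the knockdown libraries the ARID2 median was -0.03, with 9 regions called higher (0.542%, against 0.0433%) and 19 called lower (1.14%, against 0.367%), so the median there was near 0. Across the 69494 tested regions of above-median accessibility, the BRD9 minus BRD7 fold change correlated at r = -0.23 with ARID2, -0.26 with PBRM1, -0.06 with PHF10, 0.21 with SMARCD1 and -0.14 with ARID2 in the knockdown libraries. For ARID1B, ACTB, SMARCA4, ARID1A, DPF2 and SMARCC1 it ran from -0.09 (ARID1B) to -0.02 (SMARCC1), a range that holds the PHF10 value. These are descriptions across regions, which are not independent of each other. At the regions called without any 1 of the 4 libraries, the SMARCD1 median was -0.65 at the 220 lower and 0.29 at the 147 higher regions. The PBAF medians at the lower and higher regions were 0.27 and -0.57 for ARID2, 0.33 and -0.31 for PBRM1, and 0.11 and -0.08 for PHF10. ARID1A, at -0.20 and -0.71, and SMARCA4, at -0.33 and -0.96, lay below 0 at both, and further below than ARID2 at the higher regions.

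Other knockouts had medians of the same sign at both sets. ARID1A, the ARID subunit of canonical BAF, had medians of -0.22 at the lower and -0.58 at the higher regions, with 25.2% and 39.2% called lower, against 10.2% of all regions tested, and 12.8% and 3.11% called higher, against 2.25%. The ATPase SMARCA4 had medians of -0.19 and -0.67, with 32.3% and 46.8% called lower, against 13.7%, and 22.0% and 5.71% called higher, against 8.01%. DPF2, the PHD-finger subunit of canonical BAF, had medians of 0.22 and 0.13, with 10.2% and 8.15% called higher, against 1.38%, and 1.69% and 1.76% called lower, against 0.367%. In ARID1A and SMARCA4 the sign of the median was the same, but the called-higher share was larger at the lower than at the higher regions. Called regions were more accessible than the rest, with a median of 7.44 CPM at lower and 6.33 CPM at higher regions against 3.62 CPM over all regions tested, and the part of accessibility in the shares called in other knockouts was not tested. A change of sign was not particular to the PBAF subunits and SMARCD1, since the medians from wild type were 0.17 and -0.03 in ACTB and 0.23 and -0.01 in ARID1B at the lower and the higher regions.

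Set against the median of the remaining clones rather than wild type, the pattern could be read in the 21 other clones of the set, of 19 genes. At the lower regions SMARCD1 had the lowest median of the 21, at -0.28 log2 units, with 76.4% of regions below the other clones' median. PBRM1 had the highest, at 0.25, followed by DPF2 and ARID1B, each at 0.23, and by SMARCD2 and ARID2, each at 0.21. At the higher regions the lowest medians were those of the 2 SMARCA4 clones (-0.54 and -0.51), the 2 ARID1A clones (-0.45 and -0.38) and ARID2 (-0.35). The highest there were BCL11B (0.33), SMARCD3 (0.31), BCL11A (0.28) and SMARCD1 (0.24). The sign also differed between the sets in other clones, among them SMARCD3, at -0.15 for the lower regions, BCL11A and BCL11B, each at -0.12, and SMARCD2, at 0.21 for the lower and -0.09 for the higher regions. BRD9 itself lay at -0.48 and 0.51, and BRD7 at 0.61 and -0.61, which the choice of regions fixes. DPF1 and SMARCA2 stayed close to the other clones, at medians of 0.00 and -0.01 for the lower and 0.08 and 0.03 for the higher regions.

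**Figure D3:**
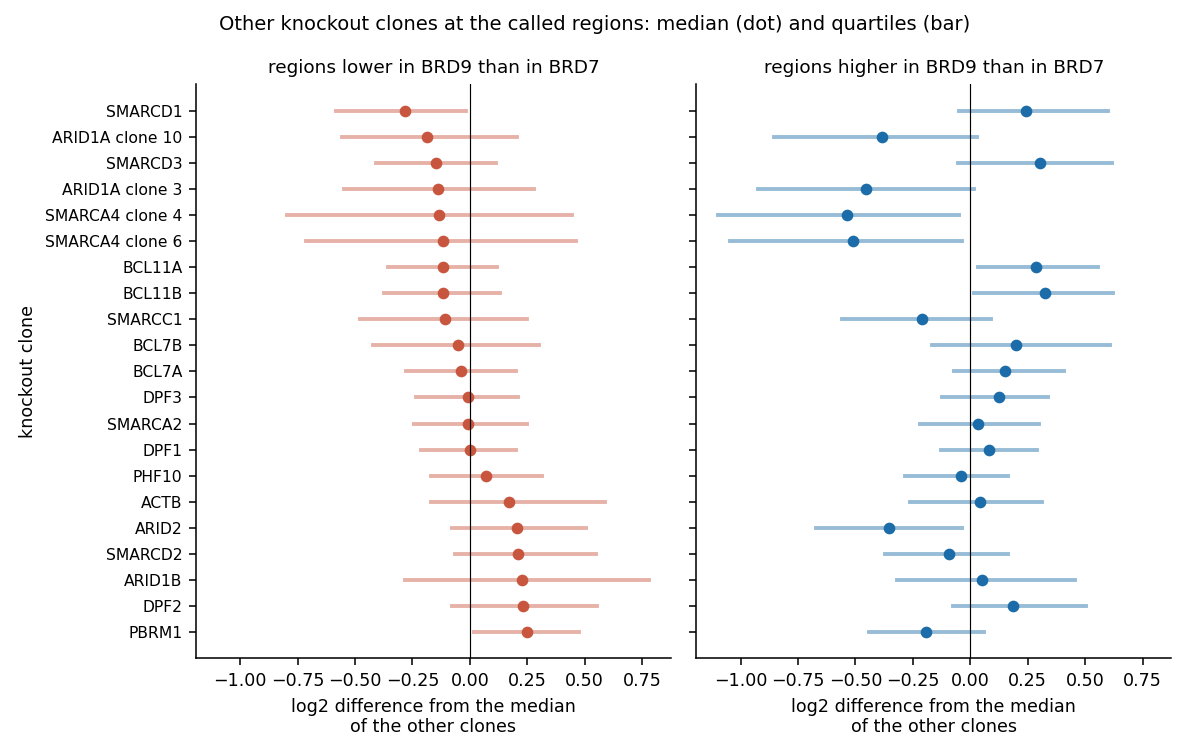
Log2 difference of each of the 21 other clones from the median of the remaining clones, at regions called lower (left) and higher (right) in BRD9 than in BRD7 knockout cells, with the median as a dot and the quartiles as a bar. SMARCD1 stands at -0.28 on the left and 0.24 on the right, whereas ARID2 stands at 0.21 on the left and -0.35 on the right.

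Single regions show the 2 patterns, and those named next were chosen after their values were seen. Calls shared by all 3 PBAF knockouts were few anywhere, with 48 of all 138791 regions tested called lower in ARID2, PBRM1 and PHF10 alike. Of these, 16 were among the 1190 higher regions and 4 among the 1661 lower regions. Regions called higher in all 3 numbered 10 among the lower and 1 among the higher regions. Their number over all regions tested was not counted. The chr3, chr2 and chr9 regions below belong to these few and do not stand for the called regions as a whole. At chr3:36985411-36986896, BRD9 knockout libraries had 23.9 and 25.1 CPM, BRD7 knockout libraries 5.53 and 3.34 CPM and wild type 17.4 and 9.56 CPM. ARID2, PBRM1 and PHF10 knockout cells had means of 5.1, 6.38 and 6.62 CPM there, near the BRD7 level. SMARCD1 knockout cells did not share the BRD9 level, at 9.13 CPM. Their log2 fold change from wild type was -0.57, against 0.85 in BRD9. In the knockdown libraries, however, the ARID2 log2 fold change from wild type was -0.01 at this region. At chr2:38322964-38323994 the levels were 15.6 and 25.1 CPM in BRD9, 4.95 and 7.03 CPM in BRD7 and 10.2 and 12.9 CPM in wild type, with 4.16, 4.1 and 4.21 CPM in ARID2, PBRM1 and PHF10 knockouts and 18.5 CPM in the SMARCD1 knockout. The ARID2 fold change in the knockdown libraries was -0.17 there, against -1.46 in the knockout table. ARID1A and SMARCA4 knockouts were lower than wild type there as well, at -1.47 and -1.21. The opposite direction is seen at chr9:8095379-8096551, with 6.62 and 5.58 CPM in BRD9, 22.9 and 20.6 CPM in BRD7 and 8.25 and 6.93 CPM in wild type. The PBAF knockouts shared the BRD7 level there, at 20.1, 20.6 and 19.8 CPM, and the ARID2 fold change in the knockdown libraries was 1.13. SMARCD1, at 7.12 CPM, and BRD9 both lay near wild type, at log2 fold changes from it of -0.10 and -0.32. At chr10:1385049-1385981, BRD9 knockout libraries had 2.69 and 3.35 CPM, BRD7 knockout libraries 13.9 and 14.9 CPM and wild type 9.22 and 13.6 CPM. SMARCD1 was low as well, at 2.28 CPM, while ARID2, PBRM1 and PHF10 had 13.7, 9.42 and 13.2 CPM. The loss was not particular to BRD9 and SMARCD1. Log2 fold changes from wild type were -2.14 in ARID1A and -2.26 in SMARCA4, against -2.31 in SMARCD1 and -1.91 in BRD9. A gain shared with SMARCD1 is seen at chr7:97780942-97781842, where BRD9 had 10.4 and 9.44 CPM and SMARCD1 18.3 CPM, against 2.65 and 2.71 CPM in BRD7 and 4.46 and 4.66 CPM in wild type. ARID1A and SMARCA4 lay at -0.45 and -0.65 from wild type there. They lay at -0.74 and -0.47 at the chr3 region, and at 0.73 and 0.41 at the chr9 region.

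Called regions were more frequent among accessible and mid-sized regions. From the least to the most accessible quartile, 0.334%, 0.942%, 2.78% and 4.16% of regions tested were called, and lower regions made up 48.3%, 52%, 55.1% and 62.6% of those calls. By width, 0.305% of regions of at most 510 bp were called, 2.51% of wider ones below 1000 bp, 4.97% of those from 1000 to below 1500 bp and 3.53% of those of 1500 bp or more. Accessibility sets how many reads stand behind a region, so these shares also follow the depth, and the parts cannot be told apart. The median width was 826 bp for lower and 765.5 bp for higher regions, against 622 bp for all regions tested. Spacing made little difference, since 1.91% to 2.15% were called in each quartile of the distance to the nearest neighbour. By chromosome the share ran from 0.644% on chromosome 22 to 2.95% on chromosome 13, and on chromosome 4 the calls were 71.6% lower.

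**Figure D4:**
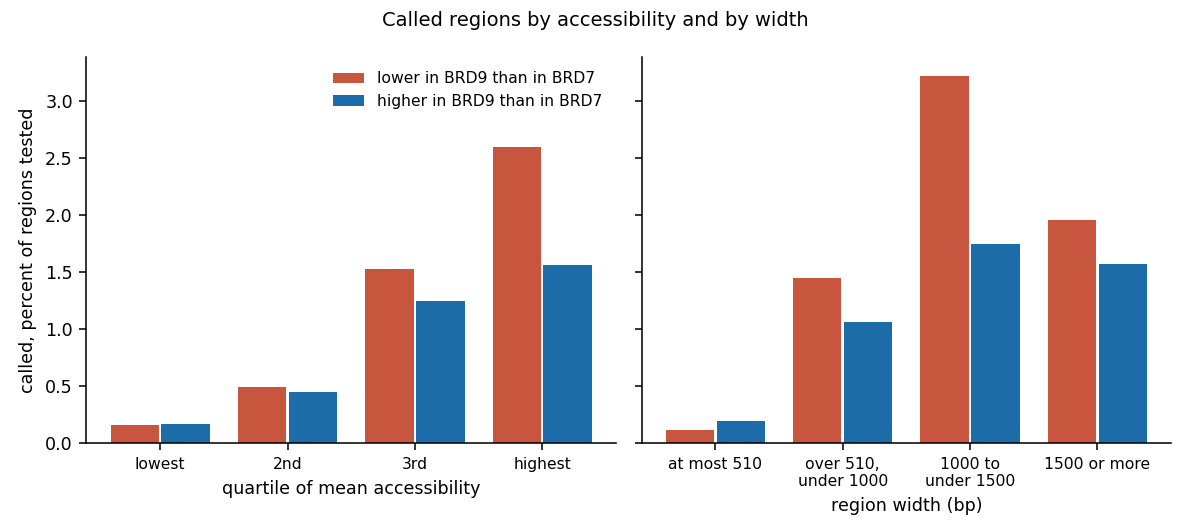
Share of tested regions called lower or higher in BRD9 than in BRD7 knockout cells, in percent, by quartile of mean accessibility (left) and by region width in base pairs (right). The share was highest in the most accessible quartile, at 2.6% lower and 1.56% higher, and in regions from 1000 to below 1500 bp, at 3.22% lower and 1.75% higher.

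Calls in textbook gene clusters were read beside the 2.05% of all regions tested that were called. In windows around the HOX clusters, which hold developmental transcription factor genes, 6 of 402 regions (1.49%) were called lower and none higher. Of the 6, 3 lay among the 100 regions at HOXD. The chromosome 6 histone gene cluster had 7 lower and no higher calls among 163 regions, or 4.29%. The zinc-finger gene clusters of chromosome 19 had 3 lower and 3 higher calls among 462 regions, or 1.3%. The protocadherin cluster had 2 lower and no higher calls among 69 regions, or 2.9%, and the olfactory receptor cluster on chromosome 11 had none among 29. In the duplicated chromosome 15 segment, 7 lower and 26 higher regions were called among 2574, or 1.28%, with a median log2 fold change of 0.06. These windows were set by round positions. The share in the chromosome 15 segment lay below the 2.05% of all regions, and its calls were mostly higher, whereas 41.7% of all calls were higher. The histone share lay above 2.05%, on 7 calls, and so did the protocadherin share, on 2. The HOX and zinc-finger shares lay below it. Apart from the chromosome 15 segment, the windows are small, so their shares rest on few calls or none.

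Part of the calls came in stretches. There were 53 stretches with at least 4 regions called in the same direction at spacings of up to 200 kb, 34 lower and 19 higher, and they held 276 calls, or 9.68% of all. The longest covered 617 kb and the shortest 9.58 kb. The stretch chr8:141169588-141522388 held 11 lower calls among 35 tested regions, and 34 of the 35 had a fold change below 0. Its median over tested regions was -0.78 between the knockouts, and -0.01 in BRD9 and 0.83 in BRD7 against wild type, so the difference lay on the BRD7 side. BRD7 was the highest of the 24 groups, the other clones lay from -0.14 to 0.12 against wild type, and the 44 regions in the flanks had a median of 0.05. The 3 most accessible lower regions of at least 1.5-fold all lie in this stretch, among them chr8:141473880-141475200, with 61.9 and 57.5 CPM in BRD9, 112.0 and 117.0 CPM in BRD7 and 65.3 and 53.2 CPM in wild type.

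The counterpart on the BRD9 side was chr12:102090848-102351795, with 9 higher calls among 25 tested regions, all 25 of them above 0. Its median was 0.85 between the knockouts, 0.96 in BRD9 and 0.06 in BRD7 against wild type, and 0.15 in the 39 flanking regions. The ARID1B knockout had a median of 0.85 against wild type over the same stretch. In chr5:44942523-45262594 both knockouts lay away from wild type, with 9 lower calls among 16 regions and a median of -1.37. BRD9 knockout cells were the lowest of the 24 groups there, at -0.88 against wild type, and BRD7 the highest, at 0.46. In chr18:42258779-42649064, 8 of 21 regions were called higher, at a median of 1.25, and both knockouts lay below wild type, at -0.60 in BRD9 and -1.85 in BRD7. In chr11:91887332-92065032, 8 of 14 regions were called higher, at a median of 1.44, with 0.85 in BRD9 and -0.69 in BRD7 against wild type. Whether DNA copy number moves with accessibility in these stretches was not tested.

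**Figure D5:**
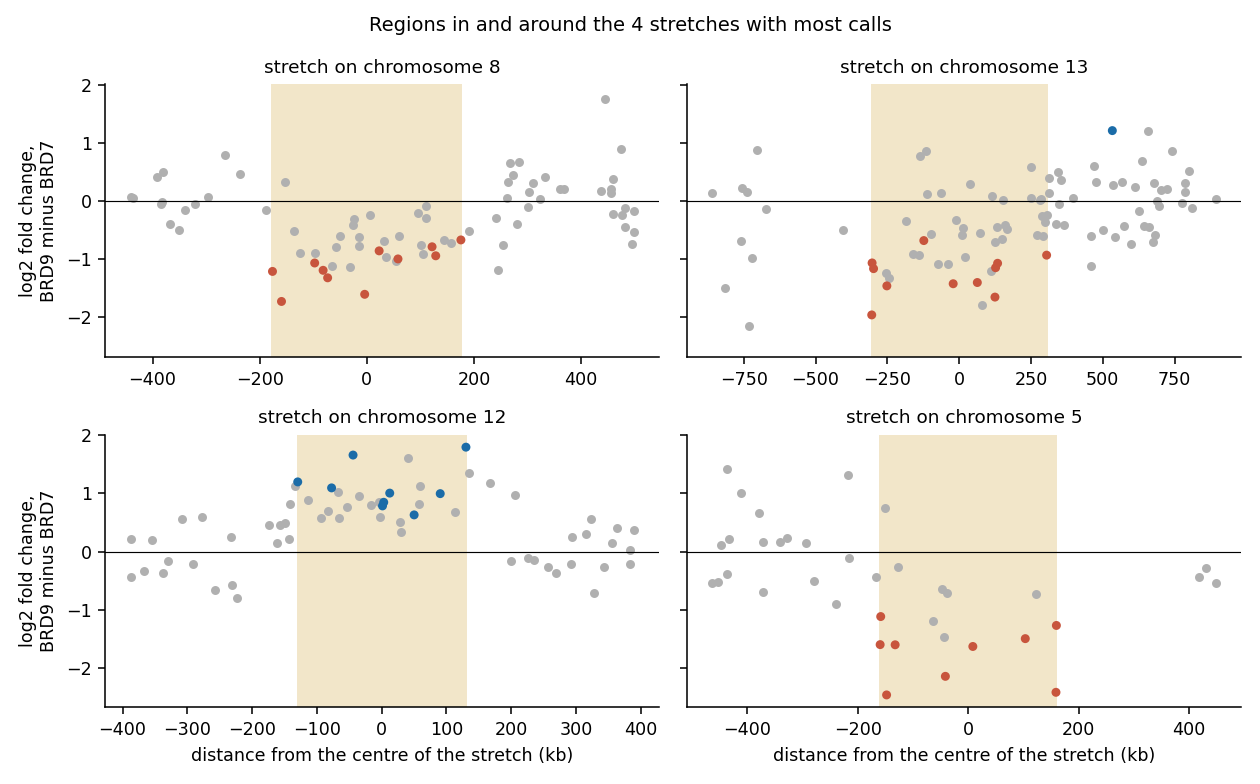
Log2 fold change, BRD9 minus BRD7 knockout, of each tested region in and around the 4 stretches with most calls, against the distance in kb from the centre of the stretch. Shading marks the stretch, coloured dots are called regions (red lower, blue higher) and grey dots are regions not called. On chromosomes 8 and 12 the shift covers nearly every region of the stretch (34 of 35 and 25 of 25), and the flanks have medians of 0.05 and 0.15. Some flanking regions near the stretch moved the same way without being called, such as -1.175 at 244.3 kb on chromosome 8 and 1.35 at 134.83 kb on chromosome 12.

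Over larger distances the knockouts differed little. Of 557 windows of 5 Mb with at least 20 tested regions, 2 had a median log2 fold change beyond 0.3, at -0.44 on chromosome 5 from 45 to 50 Mb and 0.46 on chromosome 21 from 10 to 15 Mb. The others ran from -0.29 to 0.27, and 533 windows held at least 1 call.

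At 3 called regions 1 knockout had at most 3 reads over its 2 libraries, in each case BRD9. The region chr13:108469869-108470516 had 2 and 0 reads in BRD9, 26 and 37 reads in BRD7 and 56 and 32 reads in wild type, a ratio of BRD9 to BRD7 of 0.0321 with an exact 95% interval of 0.00381 to 0.121 that covers counting error only. Regions on either side of it had reads in every library. The regions chr16:78804316-78804951 and chr16:78830044-78830545 had no reads in either BRD9 library. BRD7 libraries had 28 and 38 reads at the first and 8 and 9 at the second, and wild type had 22 and 12 at the first and 21 and 14 at the second. Against a floor of 3 reads over the BRD9 libraries, BRD9 knockout cells were at least 21.7-fold lower than BRD7 knockout cells at the first and at least 5.6-fold lower at the second.

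These chromosome 16 regions belong to a run of 4 neighbours without reads in BRD9 knockout cells. The preceding pair, chr16:78554409-78554910 and chr16:78582898-78583399, had no reads in either knockout, against 6 and 10 reads at the first and 13 and 12 at the second in wild type. The pair was also empty in other clones, since both libraries had no reads in 11 of the 21 other clones at each of them, and in 4 and 6 of the 21 at the 2 called regions. The regions next to the run, chr16:78512272-78512773 and chr16:78991448-78992031, had reads in both knockouts. No other autosomal region had 0 reads in a knockout and at least 10 in wild type. The difference at the 2 called regions was thus one that several clones of other genes shared with BRD9, and whether DNA was lost there was not tested.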

How the data were processed

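For each region and ATAC-seq library of HAP1 cells the authors deposited counts, unscaled whole numbers of reads. Per the submitters' processing notes the build was hg19 and the tools included MACS2 2.1.1.20160309, Picard 1.118 and Bowtie2 2.2.4. How regions were merged and reads counted is not given in the sources used here. A further deposited table holds the authors' normalized log2 accessibility, whose method is not given, and it served only an alternative test. No use was made of 2 columns whose libraries have no label, and wild-type replicates 3 and 4 were not analysed here.

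Columns were matched to samples by title. The 56 libraries of the knockout table, in 28 groups, entered 1 fit (R 4.3.3, edgeR 4.0.16, TMM, default expression filter, quasi-likelihood test, 28 residual degrees of freedom). Its 2-sided p-values were adjusted over the 145532 regions tested, at 0.05, and autosomal regions are reported. Total counts ran from 5085811 to 12422345. Reads carry no molecular identifiers. A second fit covered the 16 knockdown libraries, with p-values adjusted over its own 145617 regions tested. Its shares over all regions are out of the 138692 autosomal regions tested in both fits. CPM are counts scaled to the TMM-adjusted library size, clone positions use log2(CPM + 0.5), and groups are ranked within the set of libraries that share a title form with BRD9 and BRD7. The test was tried on simulated data. Alternatives used RLE factors, no filter, DESeq2 1.42.0, limma 3.58.1 on the authors' values, cyclic loess, fewer libraries, a replicate block, left-out libraries, autosomal regions alone and stricter thresholds.

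Regions were named if called, of above-median accessibility and with both BRD9 libraries on the same side of both BRD7 libraries. Named were, per direction, the 8 largest in fold, the 3 smallest in p, the 3 most accessible of at least 1.5-fold, the 2 largest per wild-type class and the 2 widest. The comparison, the groups of subunits and the lists were chosen with earlier results of these data known. No genome of the files' build was at hand, so regions carry no gene names or sequences, and coordinates stand as in the files, which do not say whether starts count from 0 or 1.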

Additional observations from a re-analysis of the deposited data

How the results depend on the processing

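The count of 2851 autosomal regions called between BRD9 and BRD7 knockouts stayed within 1.5 times under RLE size factors (2856), no filter on low counts (2856), DESeq2 (2884), autosomal regions only (2733), set 1 libraries only (3016), the 4 BRD9 and BRD7 libraries only (3291), cyclic loess offsets (3282), the authors' normalized values (3497) and the exclusion of the shifted 5 Mb windows (2846). It was 1257 at an adjusted p of 0.01, 882 to 1524 when a BRD9 or BRD7 replicate was left out, and 2821 and 2826 when a wild-type replicate was. With a replicate block it was 3063, and no region called without the block was lost. The labels do not say whether replicate numbers pair the samples. The differences between replicates of BRD9 and of BRD7 correlated at -0.04 over 69494 regions, and this 1 correlation cannot decide it. The share of calls that were lower, 58.3%, ran from 47.1% to 66.8% without 1 BRD9 or BRD7 replicate. It was 49.0% with the authors' values centred on each library's median autosomal region, a setting chosen after seeing the data. Against wild type, counts ran from 158 to 265 in BRD9 and from 225 to 527 in BRD7 without 1 replicate, settings also added after seeing the data. None of the 34 named regions changed direction, and 29 of 408 of their refits fell short of the threshold. The cause of the change with centred values was not tested.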
